A study of Homo sapiens with 1 sample.

Results

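The miR-103/miR-107 family was measured as 4 mature miRNAs, hsa-miR-103a-3p, hsa-miR-103a-2-5p, hsa-miR-103b and hsa-miR-107, out of 2549 human miRNAs on the array. They were chosen by name, from the rows of the scanner output that carry one of these names and are not controls, and these rows were 80 spots of 9 probes. The RNA came from DLD-1 cells, an established human colorectal carcinoma line, cultured in serum-containing medium and transfected with the negative control plasmid (pLVX-NC). It was read on 1 single-colour array, as total RNA labelled with Cy3. The array of cells that overexpress circLONP2, a circular RNA made from exons of the LONP2 gene, was not analysed here, so every value below describes a single condition. The spread given is that between spots of 1 array, which are technical repeats, and no test between conditions or cultures was possible. Of the miR-200 family, 5 epithelial miRNAs were looked up on this array after the values were seen (miR-200a-3p, miR-200b-3p, miR-200c-3p, miR-141-3p and miR-429). All were detected, where 56.8% of all human miRNAs were. For miR-200a-3p, the scanner software called 10 of the 19 kept spots well above background.

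miRNAs are short RNAs that guide the Argonaute silencing complex to messenger RNAs, mainly through the seed, bases 2 to 8. A hairpin precursor is cut by Drosha and Dicer into a duplex, of which 1 arm, the guide, is usually kept while the other, the passenger, is usually lost. The miR-103/miR-107 genes are known to lie in introns of the pantothenate kinase (PANK) genes, whose enzymes start the synthesis of coenzyme A. miR-103 and miR-107 are known for repressing Dicer itself and for a part in insulin sensitivity. In colorectal cancer they have been linked to metastasis through the targets DAPK and KLF4, and miR-103 has served as a reference miRNA in expression studies.

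The mature sequences are given because the family turns on 1 base and on strand. They were taken from RefSeq (GRCh38.p14), where all 4 members were found, and are written 5′ to 3′ with the seed in capitals.
hsa-miR-103a-3p: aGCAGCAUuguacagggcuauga
hsa-miR-107: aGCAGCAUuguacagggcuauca
hsa-miR-103a-2-5p: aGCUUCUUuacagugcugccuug
hsa-miR-103b: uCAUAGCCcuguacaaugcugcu
miR-103a-3p and miR-107 are each 23 bases long and share 22 of them, with 1 substitution, G22C, counted from the 5′ end of miR-103a-3p. Their seed is the same, and no other human mature miRNA of the RefSeq table has it. miR-103b is the exact reverse complement of miR-103a-3p over all 23 bases and differs from the reverse complement of miR-107 at 1 base. The passenger arm miR-103a-2-5p has a seed of its own.

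The 3 hairpins that carry the guide arms are shown next, with the mature arms measured on this array in capitals.
MIR103A1: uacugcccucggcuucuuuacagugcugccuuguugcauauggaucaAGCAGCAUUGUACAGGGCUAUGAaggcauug
MIR103A2: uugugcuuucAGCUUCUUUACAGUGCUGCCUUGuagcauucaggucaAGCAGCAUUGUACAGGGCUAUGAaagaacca
MIR107: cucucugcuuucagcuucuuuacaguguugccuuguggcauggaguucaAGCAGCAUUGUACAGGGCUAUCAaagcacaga
MIR103A1 lies at chr5:168560896-168560973 on the minus strand, within PANK3 and on the strand of that gene. MIR103A2 lies at chr20:3917494-3917571 on the plus strand, within PANK2 and again on its strand. MIR107 lies at chr10:89592747-89592827 on the minus strand, within PANK1, which has the same strand. The antisense genes MIR103B1 (chr5:168560904-168560965, plus strand) and MIR103B2 (chr20:3917502-3917563, minus strand) overlap the first pair and run against PANK3 and PANK2. The table gives gene spans only, so exon and intron borders were not checked. miR-103a-3p is made from both MIR103A1 and MIR103A2 and its signal cannot be assigned to either, whereas miR-103a-2-5p comes from MIR103A2 alone.

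Both guide arms were detected in DLD-1 control cells, at low brightness, and neither the passenger arm nor the antisense miRNA was. Detection was the flag that the scanner software sets for a miRNA, and 56.8% of all human miRNAs on the array carried it. In the deposited file the total signal of every one of the 1448 detected miRNAs equalled, within 1%, the sum of its probes whose total probe signal was above 3 times its error, and none of the 1101 undetected miRNAs had such a probe. The flag thus followed signal over error. Brightness is in arbitrary units after subtraction of the local background, which was 11 to 14 around the kept spots of the members. Brightness of different probes depends on how each one binds, so a difference between probes is not a difference in RNA amount.

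miR-103a-3p was the brightest member. Its brightness ran from 21.1 through a median of 29.1 to 38.8, with a mean of 29.7 ± 5.94 (SD, 19 spots). The software called all 19 well above background. All of them also lay above 12.5, the brightness under which 99% of the 1000 negative control spots fell. Levels are given as log2 signal with the 75th percentile of the detected probes, a brightness of 248.8, set to 0, and miR-103a-3p stood at -3.08 (standard error 0.03 from the spots). This placed miR-103a-3p at rank 963 of the 1448 detected miRNAs, with 33.5% of them dimmer. The median over detected miRNAs was -2.06 on the same scale. Next to it in rank were miR-106b-5p just above and miR-637 just below, at log2 signals of -3.08 and -3.09, differences smaller than the standard errors from the spots.

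miR-107, the guide arm of the PANK1 hairpin, was dimmer. Its kept spots ran from 7.50 through a median of 15.9 to 22.3, and 8 of 19 were well above background. Against the negative controls, 11 of its 19 spots exceeded 12.5. Its log2 signal was -4.15 (standard error 0.05), rank 1240, with 14.4% of detected miRNAs dimmer. This signal and rank rest in part on a probe with no spot well above background. The standard error comes from the spots and leaves out the distance between the probes. The neighbours in rank were miR-5010-3p at -4.14 and miR-376b-3p at -4.15, again closer than the standard errors. miR-5010-3p had 0 of 17 kept spots well above background and miR-376b-3p had 8 of 18. The value of miR-5010-3p is thus a measured value and no level.

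The passenger arm miR-103a-2-5p lay at the edge of what the array resolves. Its 19 kept spots ran from -0.0384 through a median of 7.15 to 11.5 (mean 6.89 ± 2.74, SD), and 0 were well above background. Yet 17 of the 19 carried the software's weaker flag, positive and significant over background. None exceeded 12.5, while 15 exceeded 5.58, the limit that the negative controls gave once their single brightest probe was left out. The measured log2 signal was -5.30 (standard error 0.17). It is given as measured only, since a miRNA that is not well above background has an upper bound rather than a level.

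miR-103b, which would be read from the strand opposite to PANK3 and PANK2, was at background. The 20 spots ran from -4.42 through a median of -0.399 to 6.57, with a mean of 0.156 ± 2.30 (SD). 15 of them were at or below 1, the lower limit used for logarithms, and for this reason no log2 signal is given. No spot was well above background and 2 were positive and significant. The ranges of kept spots of miR-103b and of the guide arms did not overlap, and the highest miR-103b spot was below the lowest kept miR-107 spot.

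**Figure D1:**
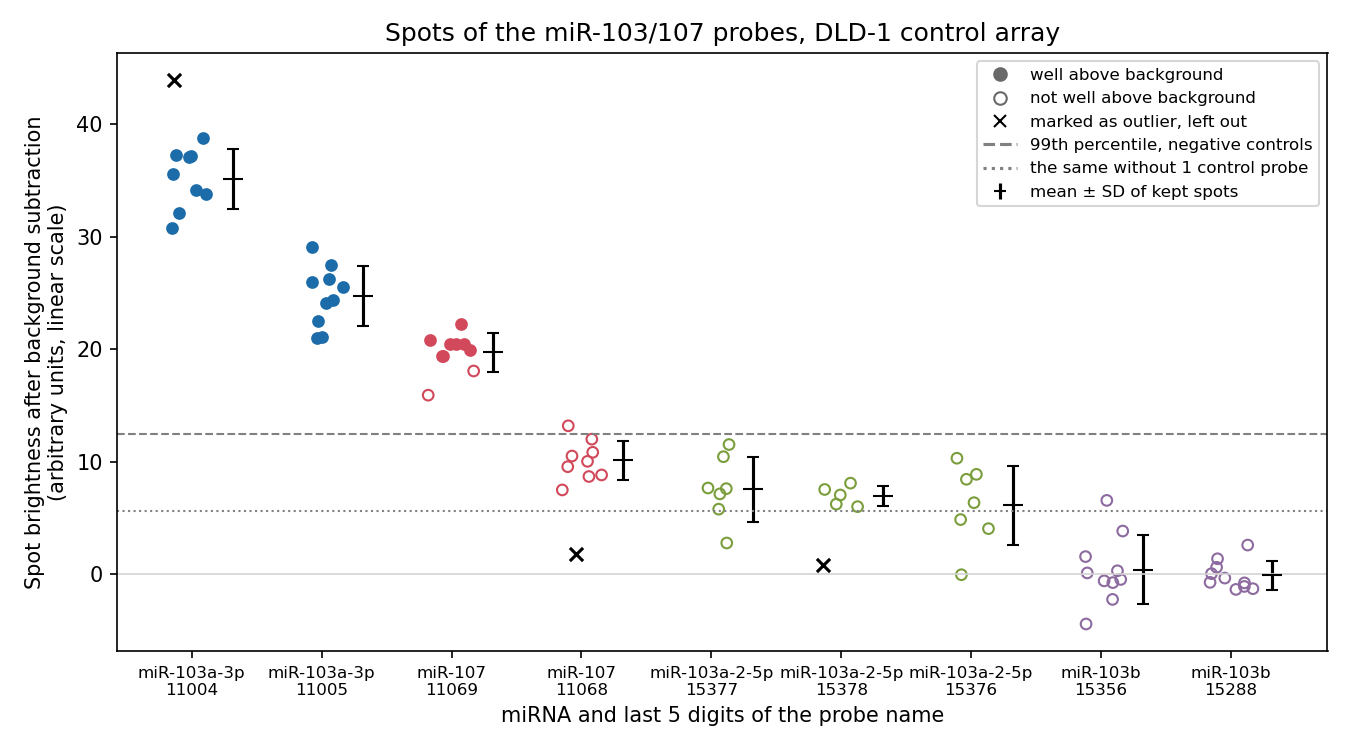
Brightness of all 80 spots of the 9 miR-103/miR-107 probes on the DLD-1 control array, in arbitrary units on a linear axis, by probe. Filled points are well above background, open points are not, crosses are the 3 spots marked as outliers and left out, bars are the mean ± SD of the kept spots, and the lines mark the 99th percentile for the negative controls, with all 7 control probes (12.5) and without 1 of them (5.58). By mean brightness the probes step down from miR-103a-3p through miR-107 and miR-103a-2-5p to miR-103b, which scatters around 0. Some neighbouring probes overlap, among them the dimmer miR-107 probe and the brightest miR-103a-2-5p probe.

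By probe, the near-identical miR-103a-3p and miR-107 formed a ladder of 4 steps. No probe on the array was shared between human miRNAs. The brighter miR-103a-3p probe, A_25_P00011004, had 9 kept spots from 30.8 through 35.5 to 38.8 (mean 35.2 ± 2.66, SD). The other, A_25_P00011005, had 10 spots from 21.1 through 25.0 to 29.1 (mean 24.8 ± 2.65). These ranges did not overlap.

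For miR-107, the probe A_25_P00011069 had 10 spots from 15.9 through 20.2 to 22.3 (mean 19.7 ± 1.72), of which 8 were well above background. The probe A_25_P00011068 had 9 kept spots from 7.50 through 10.0 to 13.2 (mean 10.1 ± 1.75), none well above background. The 2 probes of miR-107 did not overlap either. The dimmer probe of miR-103a-3p and the brighter probe of miR-107 did overlap, with 1 spot of the latter above the lowest of the former and 2 spots of the former below the highest of the latter.

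miR-103a-3p was brighter than miR-107 where both could be read, by an amount that depended on the probes and on the processing. Against A_25_P00011069, the miR-107 probe with spots well above background, the miR-103a-3p probes were 0.84 and 0.33 brighter on the log2 scale (standard error 0.06 each), the smaller value being that of the overlapping probes. Their mean over that probe was 0.58 above it (standard error 0.05), a comparison added after the values were seen. A_25_P00011068 has no level, only a working upper limit, set here at 15.97. This is the lowest mean brightness among probes of detected miRNAs with a share of 0.5 or more of their spots well above background. It is not a strict bound, since a spot of A_25_P00011069 at 18.1 was not well above background. The miR-103a-3p probes were 2.20-fold and 1.55-fold brighter than that limit, and A_25_P00011069 1.24-fold. With the dim probe averaged in at its measured brightness, the difference between the miRNAs was 1.07, a value that rests in part on a probe not well above background. After normexp background correction that difference was 0.26. On the same average the log2 signal of miR-107 was -4.15, and from its brighter probe alone it was -3.66.

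The probes of miR-103a-3p were 0.51 apart on the log2 scale (standard error 0.06). Of the 1092 detected human miRNAs with 2 or more probes well above background, 14.7% had such probes at least 1 apart, which miR-103a-3p did not, and the median distance was 0.27. The distance within miR-103a-3p was larger than in 71.2% of these miRNAs. miR-107 had 1 such probe and is not among them. Whether a probe for one of the near-identical miRNAs also captures the other was not tested, and probe sequences were not used here.

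Signal over error, formed from the same spots and so no separate measurement, put the members in the same order. The ratios were 6.82 and 5.49 for the probes of miR-103a-3p, both above the limit of 3. For miR-107, A_25_P00011069 reached 4.64 and A_25_P00011068 reached 2.60, so only the first entered its total. The probes of miR-103a-2-5p had 1.97, 1.83 and 1.60, and those of miR-103b had 0.106 and -0.0231. Although undetected, miR-103a-2-5p had a higher best ratio than 88.6% of the 1101 undetected miRNAs, for which the median was 0.0382. miR-103b was near that median, higher than 52.4%. Among detected miRNAs the median best ratio was 8.96, and 30.6% were lower than miR-103a-3p and 13.7% lower than miR-107.

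**Figure D2:**
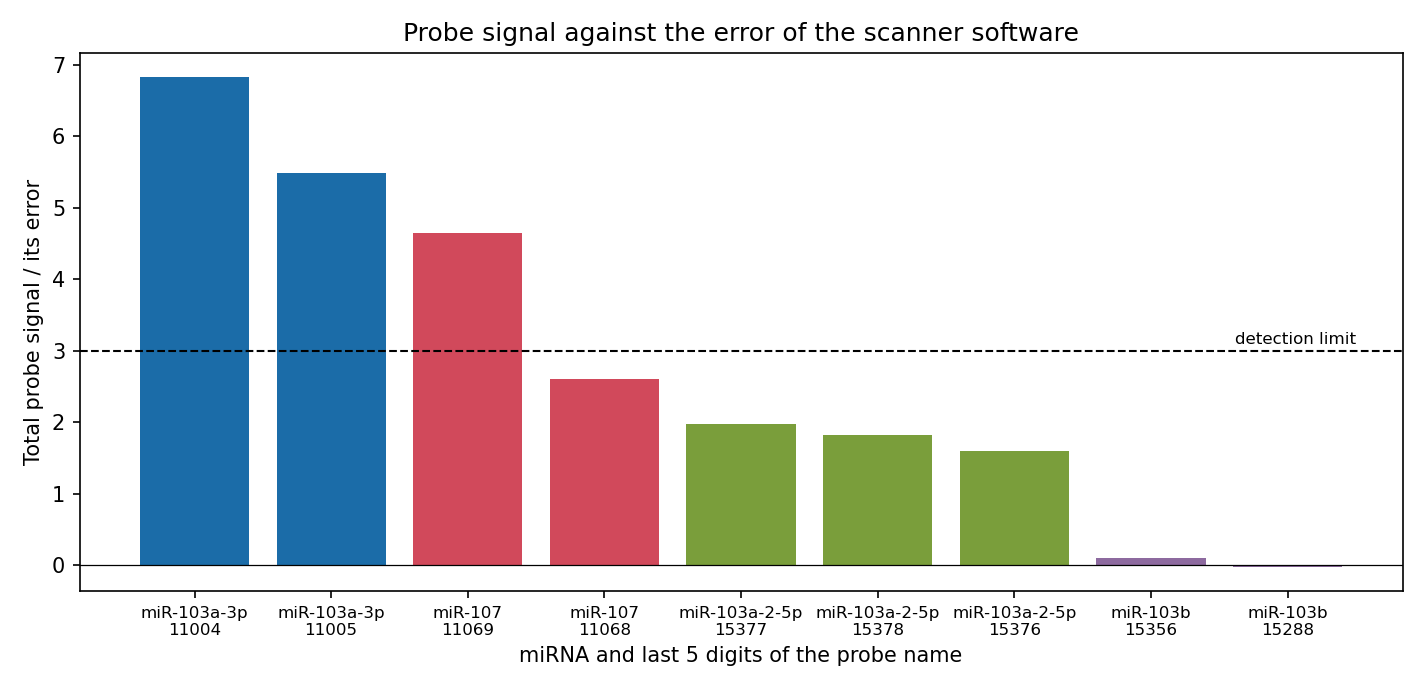
Total probe signal divided by the error the scanner software gives it, as bars from 0, for the 9 miR-103/miR-107 probes. The dashed line marks 3, above which a probe counts as detected: both miR-103a-3p probes and 1 miR-107 probe (4.64) are above it, the other miR-107 probe (2.60) and all 5 probes of miR-103a-2-5p and miR-103b are below.

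The probe left out bears on the size of the difference between the guide arms. The software's total signal was 11.02 ± 1.26 (the software's error) for miR-103a-3p, from both probes, and 3.63 ± 0.781 for miR-107, from 1 probe, a ratio of 3.04. With the left-out probe of miR-107 added as measured, the ratio was 2.01. Of the detected miRNAs, 986 had a higher total than miR-103a-3p and 1315 a higher total than miR-107.

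In the log2 values that the authors deposited after quantile normalization, miR-103a-3p stood at 3.15 (8.89 on the linear scale). miR-107 was at 2.33 (5.01), the lowest value of any detected miRNA, which it shared with 182 others. miR-103a-2-5p and miR-103b were both at 2.32 (5.0), with all other undetected miRNAs. The difference of 0.83 between the guide arms in these values is smaller than the 1.60 from the totals, and the value of miR-107 there is a floor rather than a level.

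The arms of the MIR103A2 hairpin differed, with the 3p arm detected and the 5p arm not. Since the 5p arm was not well above background, only the working limit of 15.97 can stand in for it. The mean brightness of miR-103a-3p was 1.86-fold that limit. The 3p arm also comes from MIR103A1, so this is not a ratio within 1 hairpin. Of 758 hairpins with both mature arms on the array, 47.9% had exactly 1 arm detected, 235 had both and 160 neither. Hairpins that share a mature sequence are counted separately here.

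Pairs of miRNAs that are exact reverse complements were few. Among the 2248 human miRNAs of the array that matched RefSeq by name, 8 such pairs were found, by sequence alone. Some, such as miR-4670-3p and miR-4670-5p, are named as arms of 1 miRNA, so not every pair need be antisense. In 5 of these exactly 1 partner was detected, as for miR-103a-3p and miR-103b. Both partners were detected only for miR-423-5p and miR-3184-3p, and neither in 2 pairs. With 8 pairs, and 56.8% of all human miRNAs detected, nothing is read from these counts.

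Pairs of near-identical miRNAs put the difference between miR-103a-3p and miR-107 in context. On the array, 22 pairs of equal length differed at exactly 1 base, and both partners were detected in 13. The log2 difference in signal between the partners ran from 0.21 to 4.21 with a median of 1.20. miR-103a-3p and miR-107, at 1.07, were below that median. These are averages over all probes as measured, and 3 of the 13 pairs, this one among them, include a probe with no spot well above background. Their differing base is the second from the 3′ end, the closest to that end among the 13. In the 6 pairs whose differing base lies within the last 4 bases, the difference ran from 0.21 to 1.20, and in the other 7 from 1.18 to 4.21. This division was chosen after the values were seen and was not tested, and let-7 miRNAs appear in several of the pairs.

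**Figure D3:**
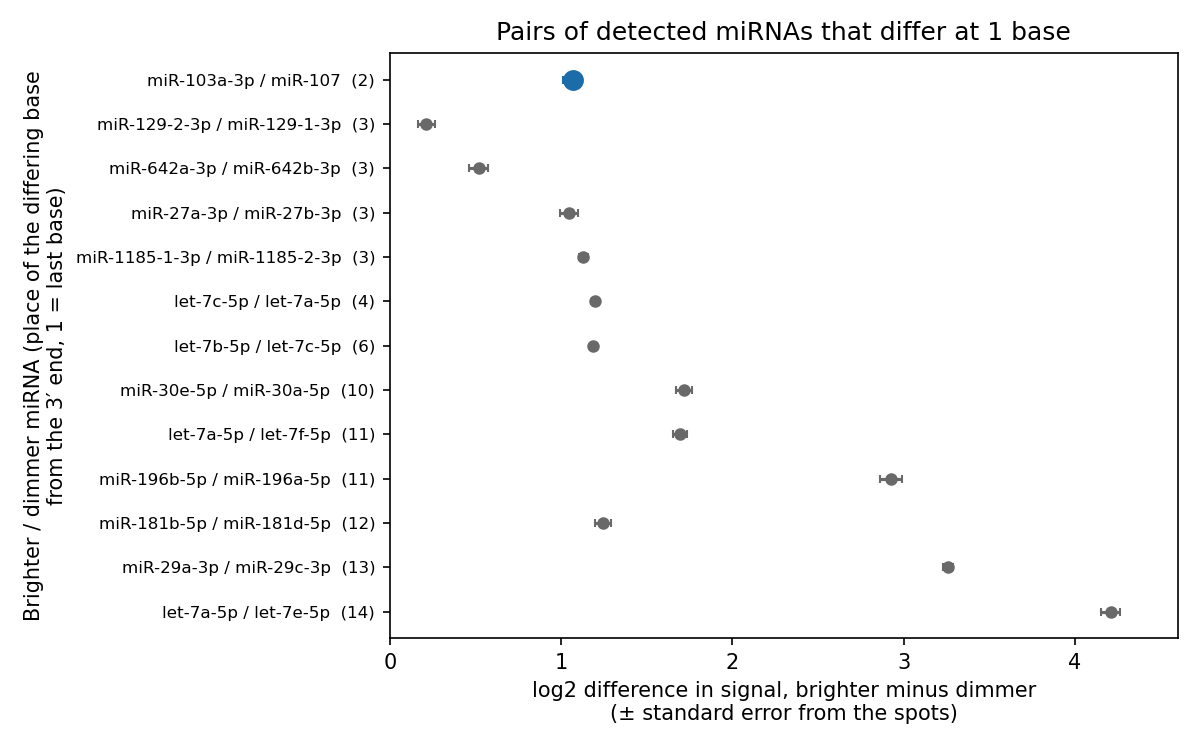
The log2 difference in array signal (brighter minus dimmer, ± standard error from the spots) for the 13 pairs of detected miRNAs that differ at 1 base, ordered by the place of that base from the 3′ end. miR-103a-3p and miR-107 (blue, 1.07) sit among the pairs with a base near the 3′ end, which reach 1.20, while let-7a-5p and let-7e-5p, at place 14, differ by 4.21.

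The miR-15/16 family was taken as the closest by seed. These miRNAs repress cell cycle genes such as cyclins, and the seed of most of them is that of miR-103/miR-107 moved by 1 base. The letters GCAGCA, bases 2 to 7 of miR-103a-3p and miR-107, start at base 3 in 7 of the 9 guide arms looked up. The other 2, miR-503-5p and miR-646, lack them and share only GCAGC at that place. Of the 9, 4 were detected (44.4%), against 56.8% of all human miRNAs.
hsa-miR-16-5p: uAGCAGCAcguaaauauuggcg
hsa-miR-15b-5p: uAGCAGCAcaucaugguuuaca
hsa-miR-6838-5p: aAGCAGCAguggcaagacuccu
The 3 sequences above are the detected arms with the shared letters, seed in capitals. miR-16-5p had a brightness from 34.4 through 50.6 to 66.8 over 18 spots and a log2 signal of -2.35, above miR-103a-3p. miR-15b-5p ran from 6.63 through 24.1 to 61.1 over 20 spots, with 10 well above background. Its log2 signal was -3.43, between miR-103a-3p and miR-107, with the spots not well above background averaged in. On the linear scale its mean of 31.4 was above the 29.7 of miR-103a-3p. miR-6838-5p was at -1.15 and miR-646 at -2.75. For miR-646, 15 of 20 spots were well above background, and the others are averaged into its value and the median below. The median over the 4 detected arms was -2.55, compared with -2.06 over all detected miRNAs. miR-15a-5p, miR-195-5p, miR-424-5p, miR-497-5p and miR-503-5p were not detected and had no spot well above background.

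**Figure D4:**
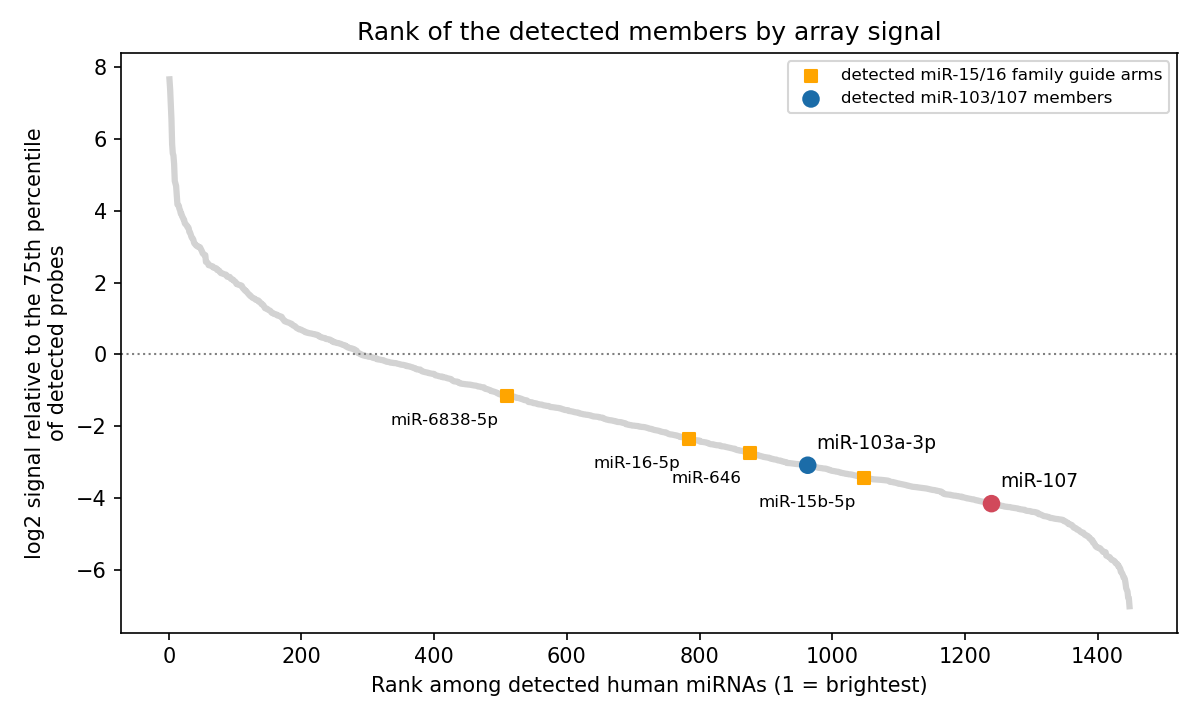
Array signal of the 1448 detected human miRNAs in DLD-1 control cells (grey), on the log2 scale with the 75th percentile of the detected probes at 0, by rank. miR-103a-3p (blue) is at rank 963 and miR-107 (red) at rank 1240. Of the 4 detected miR-15/16 family guide arms (orange squares), 3 rank above miR-103a-3p and miR-15b-5p (rank 1048) lies between the members. The values of miR-107, miR-15b-5p and miR-646 average in spots not well above background.

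By other definitions of detection the count of members changed at its edges. Asking for a probe with a share of 0.5 or more of its kept spots well above background left both guide arms and 49.9% of all human miRNAs. Every spot of a probe well above background left miR-103a-3p alone among the members, and 45.8% of all human miRNAs. Positive and significant spots in 0.5 or more of a probe added miR-103a-2-5p (68.9% of all). miR-103b was not detected under any of the 4.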

How the data were processed

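miRNA was measured in DLD-1 cells given the negative control plasmid, on 1 Agilent array. Per the file headers, the scanner output was made with Feature Extraction 11.0.1.1 and gives every spot a linear intensity from which the software had already subtracted the local background. Its flags are coded 0 or 1. The authors also deposited log2 values, quantile normalized in GeneSpring GX according to the methods, and which arrays entered that step is not given in the sources used here. The labels describe dye ligated to miRNA and the methods labelled cDNA.

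Outlier spots were dropped and intensities under 1 raised to 1. Each probe was given the mean log2 of its spots and each miRNA the mean of its probes, minus the 75th percentile of the 2567 detected probes, those of detected miRNAs with a share of 0.5 or more of their spots well above background. Standard errors combine those of the probes, from their spots. No member spot was saturated. With 1 array no test was run, and array number limits the precision.

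The members, the lists and the tests were chosen with earlier results of these data known. Named miRNAs were the members, those sharing bases 2 to 8 with miR-107, 9 guide arms of the miR-15/16 family, and for each detected member its neighbour above and below in signal. The epithelial miRNAs, the reverse complements and the pairs differing at 1 base were added after the values were seen. Alternatives covered background correction (normexp in limma 3.58.1, R 4.3.3, offset of 50, on median spot signals), outlier spots, the summary over spots and probes, scaling, the signal column and the detection criterion. Python 3.11.15, numpy 2.4.6 and pandas 2.3.3 were used, and the summaries were tested on simulated data.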

Additional observations from a re-analysis of the deposited data

How the results depend on the processing

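With 1 array, the spread between spots of a probe (SD on the log2 scale) decided whether a value had moved. Of the alternative log2 values, 20 stayed within it and 19 moved. Those that rest on miR-103a-2-5p or on the dimmer miR-107 probe, neither well above background, are measured values and no levels. Keeping outlier spots or taking the median over spots moved 1 value only, the difference between the miR-107 probes, from 0.97 to 1.22 with outliers kept. After normexp correction, whose offset of 50 is added to every spot and narrows ratios, miR-103a-3p was at -1.79, miR-107 at -2.05 and miR-103a-2-5p at -2.22. The difference between miR-103a-3p and miR-107 was 0.26 in place of 1.07, that between miR-103a-3p and miR-103a-2-5p 0.43 in place of 2.22, and those between the probes of miR-103a-3p and of miR-107 were 0.18 and 0.19. With the percentile over all probes the signals of miR-103a-3p, miR-107 and miR-103a-2-5p were -1.29, -2.36 and -3.51. The brightest probe gave -2.83 for miR-103a-3p and -3.66 for miR-107. The total signal gave -2.79 and -4.39 for them and a difference of 1.60. In the deposited values the difference was 0.83 for both comparisons, since miR-107 and miR-103a-2-5p lie at the lowest values there. With only probes well above background, also added after the data were seen, the difference between miR-103a-3p and miR-107 was 0.58. Neither difference between miRNAs changed sign under the alternatives tried, though in the deposited values the sign was fixed by those lowest values. A difference between the brightest and the dimmest probe cannot change sign. Members detected were 1 when every spot of a probe had to be well above background, and 2 or 3 otherwise. Members with a probe mean above the negative controls were 2, and 3 without 1 control probe, a setting added after the data were seen. The share of all human miRNAs above these limits is not given here, so nothing is read from these counts. For miR-103b no log2 signal, and for the undetected arms no total signal, could be given. No paired analysis was possible because only 1 sample was measured.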
